A study of Mus musculus with 24 samples.

Results

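The genes described here are 43 lysosomal enzyme and membrane genes, chosen by symbol: 13 proteases (11 cathepsins, legumain and tripeptidyl peptidase), 13 glycosidases and sulfatases, 6 genes of lipid breakdown or its protein cofactors, 7 membrane proteins, 3 subunits of the vacuolar proton pump (V-ATPase) and the transcription factor gene Tfeb. All 43 were among the 18647 genes of the count table, and all were among the 18153 that passed the filter on low counts. One of them, Atp6v0d2, was listed at 0 in 8 of the 9 control libraries and passed the filter only through libraries with status epilepticus (SE), so counts of members below include a gene that could only come out higher. Without it, 7 members in place of 8 were higher at 6 h, 11 in place of 12 at 12 h and 19 in place of 20 at 36 h.

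Lysosomes are acidic organelles that take apart proteins, glycans and lipids delivered by endocytosis, phagocytosis and autophagy. The V-ATPase acidifies the lumen, heavily glycosylated membrane proteins such as LAMP1 and LAMP2 line it, and a large set of soluble hydrolases works inside. TFEB is a master regulator of these genes and binds an E-box element in many of their promoters. In brain, lysosomes are present in every cell, while a few members such as Cd68, Ctss and Laptm5 are expressed chiefly by microglia, the resident phagocytes.

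RNA came from the microdissected hippocampal CA1 region of adult C57Bl/6N mice, at least 60 days old. Mice of the SE groups received 1 mg/kg scopolamine methyl nitrate, a peripheral muscarinic blocker, and 20 min later 335 mg/kg pilocarpine hydrochloride, a muscarinic agonist that induces SE, with 4 mg/kg diazepam 40 min after SE onset, and only mice that developed SE were used. Controls (Ctr) had saline in place of pilocarpine and were otherwise handled alike, so scopolamine and diazepam are shared by all groups. SE tissue came from 5 times (6, 12, 24, 36 or 72 h) and Ctr tissue from 3 (12, 36 or 72 h), with 3 libraries in each of the 8 groups and 24 in all. CA1 tissue holds neurons, glia and vessels together, so in these data more cells of a type and more RNA per cell cannot be told apart.

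Library totals ranged from 2663936 to 30133731 counts, and the 3 Ctr 72 h libraries were the shallowest group (2663936 to 11680209). Markers of CA1 pyramidal neurons were detected in every library, at a summed 944 to 2020 CPM (counts per 1000000 of the library's effective size) in Ctr libraries and 393 to 1120 CPM after SE. A list of sensory ganglion genes, which CA1 tissue should hardly contain, summed to more than 100 CPM in 6 libraries: 1300 CPM in Ctr 72 h replicate 2, 677 and 358 in SE 72 h replicates 1 and 2, 590 in SE 36 h replicate 3, 484 in SE 12 h replicate 1 and 239 in SE 6 h replicate 3. In the other 18 libraries it lay between 3.56 and 57.7 CPM. Ctr 72 h replicate 2 also stood apart among the members. It held the highest control level of Ctsb (981 CPM against 502 to 549 in the other 8 controls), Ctsl (239 against 65.3 to 90.0 CPM), Lamp2 (173 against 66.7 to 80.5 CPM) and Lgmn (180 against 81.7 to 111 CPM), and the lowest of Cd68 (0.171 CPM, 1 count, against 5.14 to 11 CPM). Without these 6 libraries, 10 members were called higher and 6 lower at 12 h, and 18 and 1 at 36 h. The shares of all genes called in this refit are not given here, so these counts do not set the members apart from other genes. At 72 h the refit had a single SE 72 h library, so no count is given.

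The lysosomal genes moved late. A gene was called higher or lower at a Benjamini-Hochberg adjusted p of at most 0.05 in edgeR's quasi-likelihood test with a log2 fold change (log2FC) whose size reached 0.66 or more. At 12 h, 12 of the 43 were higher and 4 lower than in Ctr 12 h, where 13.7% of all genes tested were called higher and 11.2% lower. At 36 h, 20 were higher and 2 lower (all genes: 12.6% and 8.78%). At 72 h, 27 were higher and none lower (all genes: 15.1% and 4.12%). The library labels carry numbers that fall into 3 ranges, and the 3 Ctr 72 h libraries share a range that holds no SE 72 h library, so at this time treatment and range do not overlap. The range was then entered as a factor in place of the main fit's RUVr factor, which captures unwanted variation. Outside Ctr 72 h, the range of those libraries holds only SE 12 h replicate 1 and Ctr 12 h replicate 3, so its effect was estimated from these. At 72 h, 22 members were then higher and none lower (all genes: 6.26% and 2.45%). Ctsk (1.14), Ctso (0.66), Tpp1 (0.63), Man2b1 (0.60) and Tfeb (0.34) were no longer called, losses that cannot be laid to the range alone. The median log2FC over the 43 went from 0.12 at 12 h to 0.56 at 36 h and 0.94 at 72 h, while the median over all genes tested was 0.01, 0.00 and 0.10. Scaled to library totals alone, without TMM, the all-gene median at 36 h was 0.13, with 15.2% of genes higher and 6.54% lower, and 22 members were higher and 1 lower. The other two SE times had no control of their own time and were set against the mean of the 3 Ctr groups. There, 8 members were higher and 2 lower at 6 h (all genes: 15.7% and 6.16%; member median 0.04), and 14 were higher and 3 lower at 24 h (all genes: 14.8% and 9.13%; member median 0.40). The 3 SE 24 h libraries share a label range that holds no Ctr library, so treatment and range do not overlap in the 24 h comparison either.

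**Figure D1:**
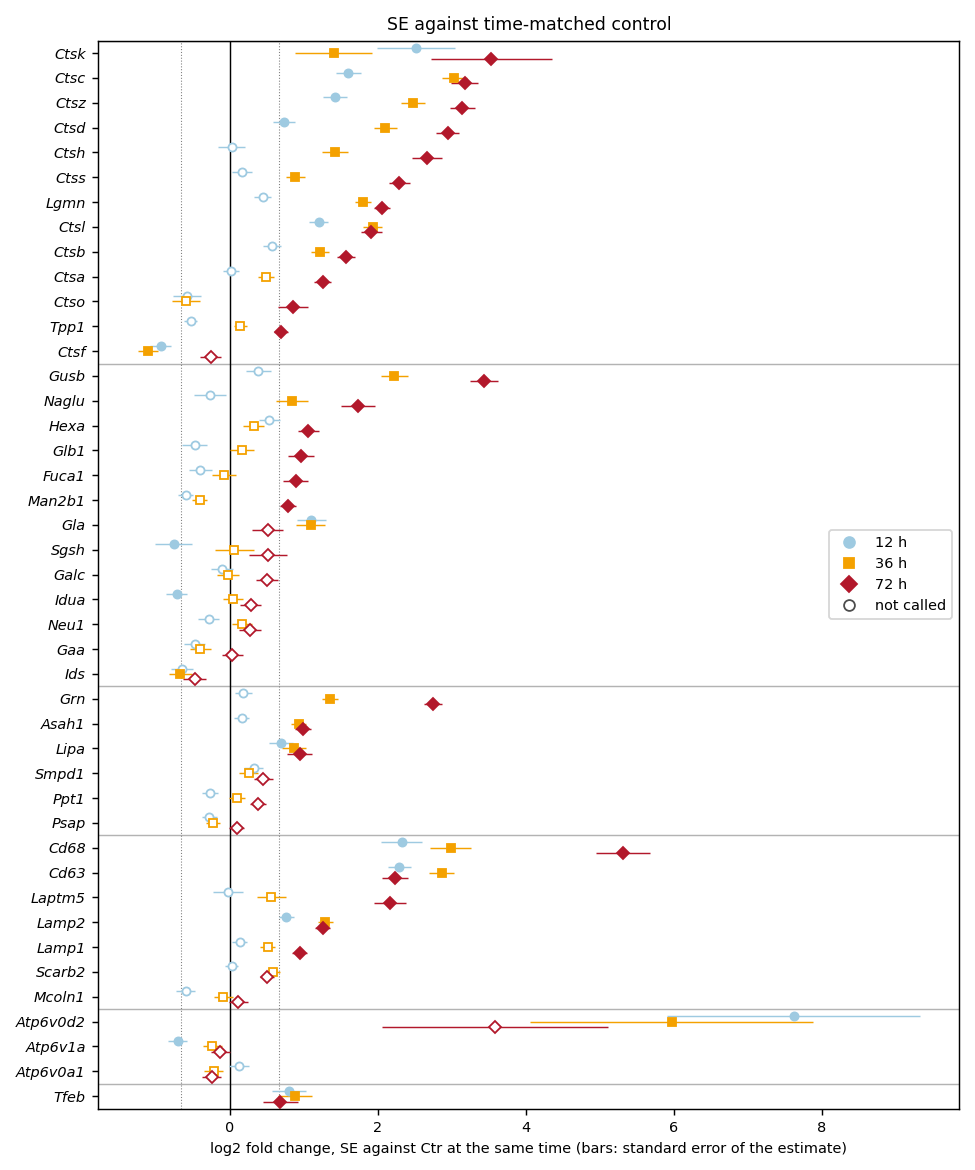
Log2FC of SE against Ctr of the same time for each of the 43 genes, ordered by role and by the 72 h value. Circles are 12 h, squares 36 h and diamonds 72 h, filled where the gene was called, with bars of 1 standard error and dotted lines at 0.66 and -0.66. Most proteases step to the right from 12 to 72 h, whereas Ctsf lies left of 0 at 12 and 36 h.

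Over the 3 time-matched comparisons, 10 members were higher at all 3 times (Ctsc, Ctsd, Ctsk, Ctsl, Ctsz, Lamp2, Cd63, Cd68, Lipa and Tfeb). Another 8 were higher at 36 and 72 h (Ctsb, Ctsh, Ctss, Lgmn, Grn, Gusb, Naglu and Asah1), and 9 only passed the thresholds at 72 h (Ctsa, Ctso, Tpp1, Hexa, Glb1, Man2b1, Fuca1, Lamp1 and Laptm5). Gla and Atp6v0d2 were called higher at 12 and 36 h and missed the thresholds at 72 h. The called decreases fell at 12 h for Idua, Sgsh and Atp6v1a, at 36 h for Ids, and at both times for Ctsf. The 9 members that passed in none of the 3 were Psap, Gaa, Galc, Smpd1, Ppt1, Neu1, Scarb2, Mcoln1 and Atp6v0a1. Among the 5 SE groups, the mean level was highest at 72 h for 31 of the 43 members and lowest at 6 h for 19 and at 12 h for 15. These patterns and peak times were not counted over all genes, so they do not set the members apart from other genes.

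**Figure D2:**
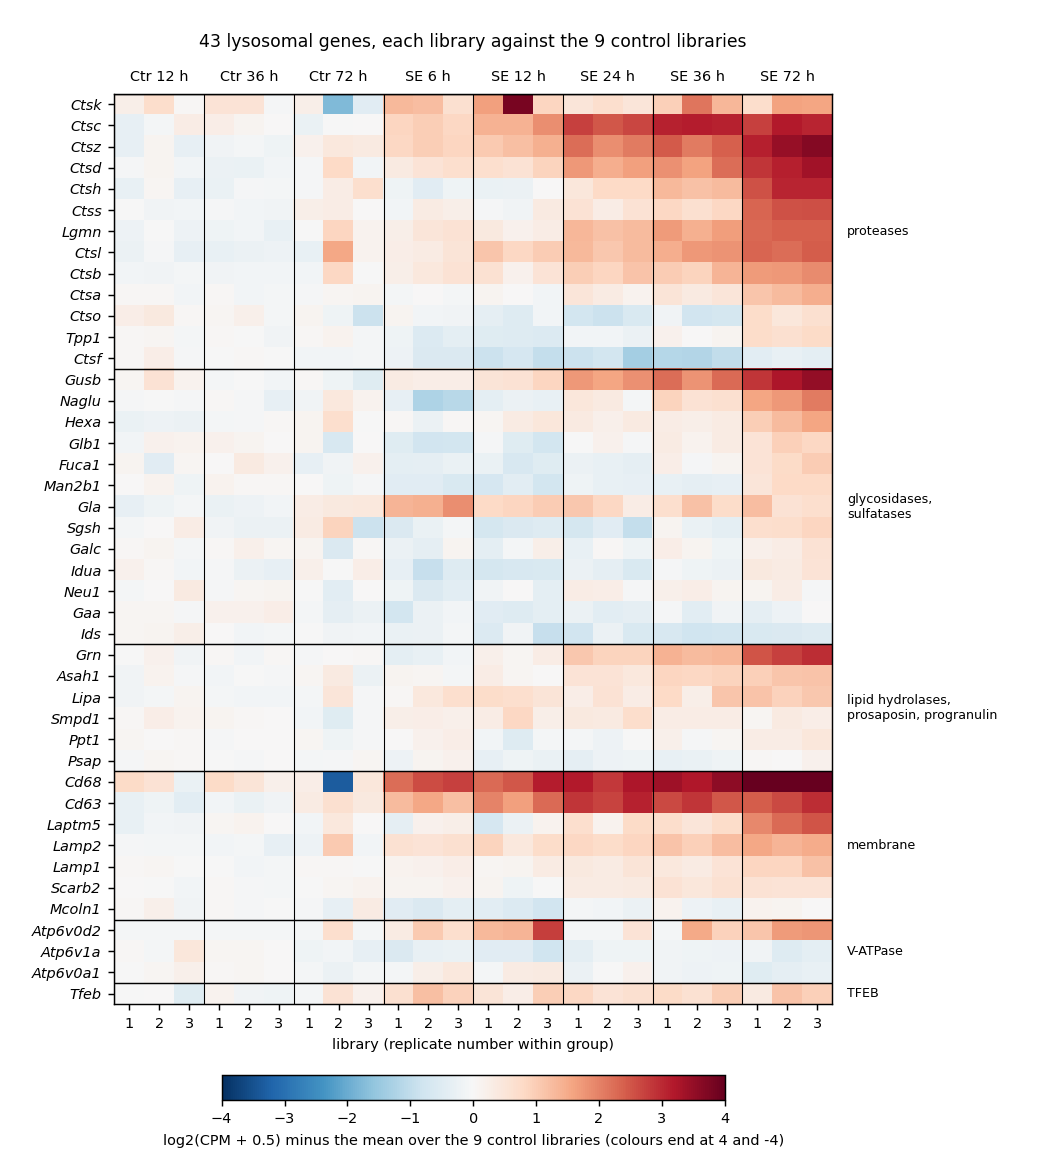
Each library's log2(CPM + 0.5) minus the mean over the 9 Ctr libraries, genes in rows by role and libraries in columns by group. Red is above and blue below the controls, with colours ending at 4 and -4. The 3 SE 72 h columns are the reddest, and Ctr 72 h replicate 2 departs from its group in Cd68, Ctsk and Ctsl.

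Because TFEB acts on an E-box in lysosomal promoters, the proximal promoters (250 bases before to 50 after the start) of the members were searched for 4 short motifs on both strands. RefSeq sequences of GRCm38.p6 were used, a build other than that of the counts, and 39 of the 43 members had at least 1, 44 promoters in all (Ctsb, Ctsh, Asah1 and Atp6v0d2 had none). The palindromic TCACGTGA of the CLEAR element (coordinated lysosomal expression and regulation) was in a promoter of 5 of the 39 members, 12.8%, against 1.12% of all 27025 genes counted the same way and 0.974% of all 32851 promoters of that length. Its core CACGTG, which every TCACGTGA also contains, was in 13 of 39 (33.3%, all genes 8.09%, all promoters 7.15%). GAGGAAGT, a sequence bound by the myeloid factor PU.1, was in Ctsc, Ctss, Gla and Gusb (10.3%, all genes 3.69%, all promoters 3.2%), and the AP-1 sequence TGAGTCA in Cd68, Glb1, Neu1 and Psap (10.3%, all genes 5.95%, all promoters 5.20%). The CLEAR element is known from lysosomal genes, so its higher share here goes with the choice of members and uses no expression data. A match is a stretch of letters and was not tested as a binding site. The stretches around the TCACGTGA matches are shown for the 5 members that hold one, as these include Ctsd, called higher at all 3 times, Ctsa, called at 72 h alone, Gla, called at 12 and 36 h, Atp6v1a, called lower at 12 h, and Mcoln1, not called. Capitals mark the motif, and each runs 5′ to 3′ on the gene's strand.
Ctsd, chr7:142387889-142387956, minus strand: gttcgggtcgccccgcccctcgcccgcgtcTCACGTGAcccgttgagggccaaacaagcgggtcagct
Ctsa, chr2:164833730-164833792, plus strand: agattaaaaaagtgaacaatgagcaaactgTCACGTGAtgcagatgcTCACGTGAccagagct
Gla, chrX:134601163-134601255, minus strand: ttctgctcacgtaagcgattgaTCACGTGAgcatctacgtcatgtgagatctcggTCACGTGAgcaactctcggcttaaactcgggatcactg
Atp6v1a, chr16:44139354-44139421, minus strand: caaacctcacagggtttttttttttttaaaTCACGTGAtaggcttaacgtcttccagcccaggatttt
Mcoln1, chr8:3500443-3500510, plus strand: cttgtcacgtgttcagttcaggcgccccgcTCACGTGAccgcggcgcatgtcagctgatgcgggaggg
Ctsa and Gla carried 2 copies. For PU.1 the stretches of Ctsc and Ctss are shown, proteases with differing time courses, with the reverse complement ACTTCCTC in capitals.
Ctsc, chr7:88277904-88277971, plus strand: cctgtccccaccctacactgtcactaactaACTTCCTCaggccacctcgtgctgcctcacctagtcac
Ctss, chr3:95526754-95526805, plus strand: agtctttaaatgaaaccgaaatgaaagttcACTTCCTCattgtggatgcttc

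Of the 13 proteases, 12 were called higher at 72 h and none lower (92.3% against 15.1% of all genes, median log2FC 2.05). At 36 h, 9 were higher and 1 lower (69.2% and 7.69%, all genes 12.6% and 8.78%, median 1.40), and at 12 h 5 were higher and 1 lower (38.5% and 7.69%, all genes 13.7% and 11.2%, median 0.44). Shares of the roles were not tested against each other. Ctsk, Ctsc and Ctsz had the largest called changes, and Tpp1 the smallest.

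Ctsc (GRCm39 chr7:87927092-87960096, plus strand) encodes cathepsin C, a dipeptidyl peptidase that activates serine proteases of immune cells. Its level was 7.76, 9.40 and 12.4 CPM in Ctr 12 h, 12.1, 10.7 and 9.94 in Ctr 36 h and 8.10, 9.89 and 10.1 in Ctr 72 h. After SE it was 18.5, 20.0 and 18 CPM at 6 h, 26.9, 26.9 and 37.4 at 12 h, 68.6, 57.7 and 66.7 at 24 h, 87.4, 92.4 and 86.9 at 36 h and 68.4, 93.0 and 85.9 at 72 h. Each SE library lay above each Ctr library, from 6 h on. The log2FC was 1.60 at 12 h (standard error 0.17, edgeR adjusted p = 5.78e-07), 3.03 at 36 h (0.17, adjusted p = 2.50e-10) and 3.17 at 72 h (0.18, adjusted p = 2.92e-10).

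Ctsz (chr2:174267304-174280832, minus strand) encodes cathepsin Z, a carboxypeptidase. Control libraries held 21.9 to 37.5 CPM. SE libraries held 49.4, 54.9 and 51.0 CPM at 6 h, 57.7, 64.5 and 75.5 at 12 h, 133, 102 and 119 at 24 h, 153, 118 and 148 at 36 h and 241, 314 and 358 at 72 h. The groups did not overlap at any time, and the log2FC was 1.42 at 12 h (standard error 0.16, edgeR adjusted p = 1.14e-06), 2.47 at 36 h (0.16, 9.27e-10) and 3.14 at 72 h (0.17, 1.35e-10). The gene Nelfcd overlaps Ctsz on the other strand, and counting ignored strand, so its reads cannot be fully separated.

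Ctsk (chr3:95406178-95416732, plus strand), the collagen-degrading cathepsin K known from bone-resorbing cells, was far less abundant and far more variable. It lay at 1.51, 2.28 and 1.28 CPM in Ctr 12 h, 2.01, 1.98 and 1.15 in Ctr 36 h and 1.52, 0 and 0.750 in Ctr 72 h. SE libraries held 4.87, 23.2 and 2.63 CPM at 12 h, 2.82, 7.09 and 3.82 at 36 h and 2.31, 4.77 and 4.58 at 72 h. One SE 12 h library was thus several times above the others of its group, and the highest mean of the SE groups was at 12 h. The log2FC was 2.51 at 12 h (standard error 0.53, edgeR adjusted p = 0.000891), 1.40 at 36 h (0.52, 0.0469) and 3.53 at 72 h (0.82, 0.00306), the last against a Ctr group with 1 library at 0. The calls rest on few reads. Without SE 12 h replicate 2 the 12 h log2FC was 1.29 and was still called, without Ctr 72 h replicate 2 the 72 h value was 1.64 and was not called (adjusted p = 0.131), and at 36 h the call was lost without any one of 5 libraries (log2FC 1.04 without SE 36 h replicate 2).

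Ctsd, the aspartic protease cathepsin D, was the most abundant of the strongly changed members. It was 134 to 256 CPM in Ctr 72 h and 1060, 1260 and 1500 CPM in SE 72 h, with log2FC of 0.73, 2.10 and 2.94 at 12, 36 and 72 h (edgeR adjusted p = 0.000840, 5.76e-09 and 1.44e-10). Its 12 h call was lost without SE 12 h replicate 3 (0.63). Lgmn, the asparaginyl endopeptidase that cleaves other cathepsins to their mature forms, went from 81.7 to 92.3 CPM in Ctr 36 h to 325, 270 and 322 CPM in SE 36 h and 489, 529 and 528 CPM in SE 72 h. Ctsb and Ctsl, broad cysteine proteases, were called higher at 36 h (log2FC 1.22 and 1.93) and at 72 h (1.57 and 1.91), and Ctsl also at 12 h (1.20).

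The proteases Ctss and Ctsh, both known from antigen presentation, rose later. Ctss, which trims the invariant chain of MHC class II in microglia and macrophages, was 45.7 to 65.1 CPM in SE 12 h against 46.0 to 49.8 in Ctr 12 h, with a log2FC of 0.16. At 72 h it was 256, 298 and 304 CPM against 60.3, 62.6 and 51.7 CPM, a log2FC of 2.29 (standard error 0.14, edgeR adjusted p = 4.40e-10). Ctsh, an aminopeptidase, went from a log2FC of 0.02 at 12 h to 1.42 at 36 h and 2.66 at 72 h, where its libraries held 60.0, 84.8 and 85.3 CPM against 9.45, 12.1 and 16.1 CPM.

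Ctsf and Ctso ran the other way in the first 36 h. Ctsf, a cysteine protease that contributes to invariant chain processing and is mutated in a form of neuronal ceroid lipofuscinosis, held 77.6, 90.6 and 72.9 CPM in Ctr 12 h and 40.8, 46.6 and 38.1 in SE 12 h, 74.2, 77.7 and 73.3 in Ctr 36 h and 33.9, 32.7 and 37.6 in SE 36 h, and 70.0, 69.2 and 70.1 in Ctr 72 h and 55.7, 61.4 and 57.3 in SE 72 h. All SE libraries lay below all controls of their time, by a log2FC of -0.94 at 12 h (standard error 0.14, edgeR adjusted p = 3.32e-05) and -1.11 at 36 h (0.14, 5.10e-06), whereas the -0.26 of 72 h did not pass (0.14, 0.179). Ctso was at a log2FC of -0.58 and -0.59 at 12 and 36 h, short of the threshold in size, was called lower at 24 h (-0.78) and higher at 72 h (0.85, adjusted p = 0.00288). Its Ctr 72 h libraries were spread from 19.5 to 38.4 CPM, against 48.8 to 59.5 CPM in SE 72 h, and without Ctr 72 h replicate 3 the 72 h log2FC was 0.65 and was not called. At 12 h it was called lower without SE 12 h or Ctr 12 h replicate 3 (-0.70 and -0.67), and at 36 h without SE 36 h replicate 1 (-0.82).

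Tpp1, the tripeptidyl peptidase lost in a childhood form of neuronal ceroid lipofuscinosis, changed least among the called proteases. Control libraries held 89.5 to 110 CPM. The SE libraries held 70.6, 68.9 and 68.3 CPM at 12 h (log2FC -0.53, short of the threshold in size), 113, 101 and 108 at 36 h (0.14) and 167, 156 and 168 at 72 h, where the log2FC of 0.69 passed (standard error 0.10, edgeR adjusted p = 1.68e-05), though not without Ctr 72 h replicate 3 (0.63). Ctsa, the carboxypeptidase that also protects β-galactosidase and neuraminidase, was flat at 12 h (log2FC 0.01) and reached 202, 228 and 260 CPM at 72 h against 90.8, 99.4 and 102 CPM (1.25).

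**Figure D3:**
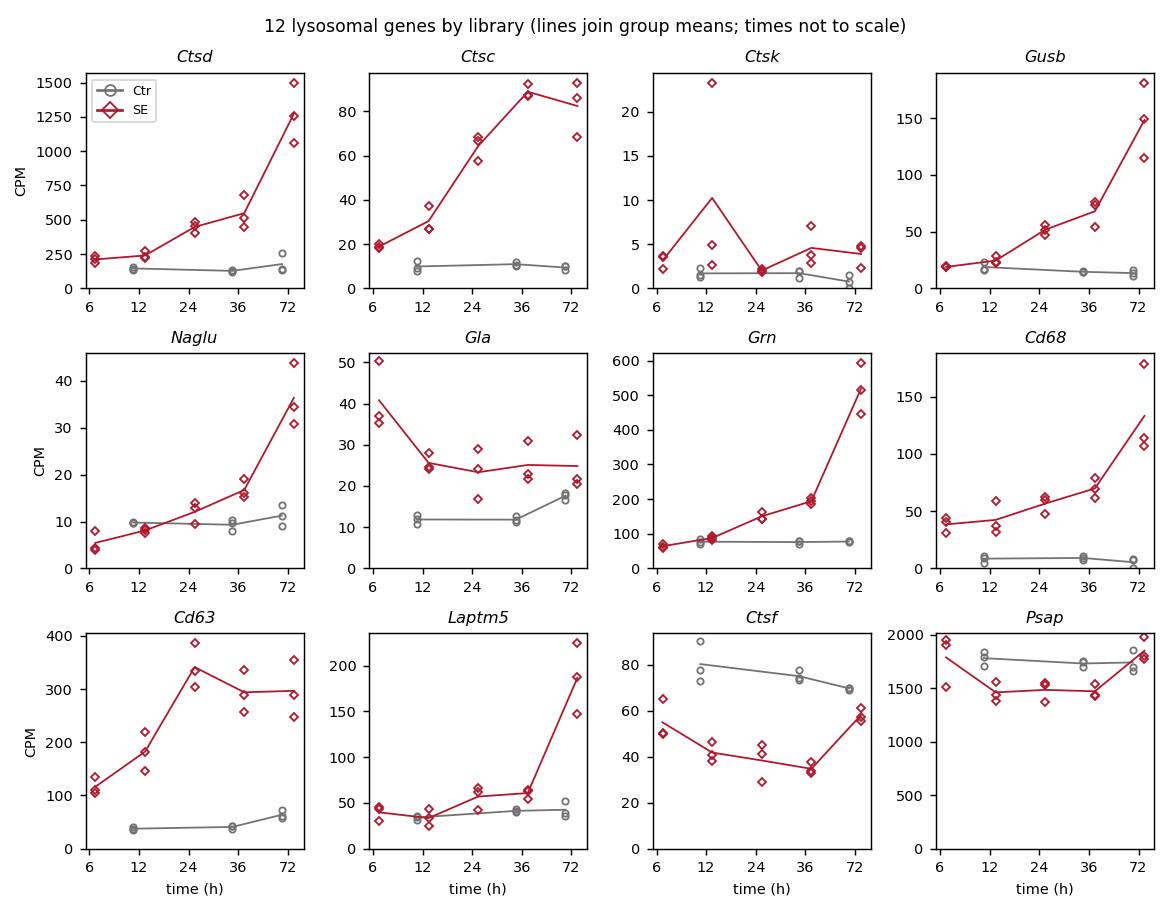
CPM of 12 members in each library against time, Ctr as grey circles and SE as red diamonds, with lines joining group means and each vertical axis starting at 0. Ctsd, Gusb, Naglu, Grn and Laptm5 rise most steeply between 36 and 72 h, Cd63 levels off from 24 h, Gla is highest at 6 h, and Ctsf lies below its controls.

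Among the 13 glycosidases and sulfatases, which strip sugars and sulfate groups from glycoproteins, glycolipids and glycosaminoglycans, 6 were called higher at 72 h and none lower (46.2% and 0%, all genes 15.1% and 4.12%, median log2FC 0.51). At 12 h, 1 was higher and 2 lower (7.69% and 15.4%, near the 13.7% and 11.2% of all genes, median -0.40), and at 36 h 3 were higher and 1 lower (23.1% and 7.69%, all genes 12.6% and 8.78%, median 0.06). Gusb, Naglu and Gla had the largest called changes.

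Gusb (chr5:130017852-130031903, minus strand) encodes β-glucuronidase. It held 16.2, 23.1 and 17 CPM in Ctr 12 h, 14.5, 15 and 14.1 in Ctr 36 h and 15.8, 13.5 and 10.9 in Ctr 72 h. SE libraries held 19.3, 18.6 and 18.6 CPM at 6 h, 22.1, 23 and 28.1 at 12 h, 51.8, 47.1 and 56.0 at 24 h, 73.5, 54.1 and 76.0 at 36 h and 115, 149 and 181 at 72 h. The groups overlapped at 12 h and were apart at 36 and 72 h, with log2FC of 0.38 (standard error 0.17, edgeR adjusted p = 0.0890), 2.22 (0.18, 1.37e-08) and 3.43 (0.19, 1.50e-10). The gene overlaps Vkorc1l1 on the other strand.

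Naglu (chr11:100960838-100968517, plus strand), an N-acetylglucosaminidase of heparan sulfate breakdown, fell first. SE libraries held 7.91, 4.02 and 4.42 CPM at 6 h against 7.89 to 13.5 CPM over the 9 controls, a log2FC of -0.88 (standard error 0.19, edgeR adjusted p = 0.00113) with 1 SE library inside the control range. At 12 h it was at 7.60, 8.55 and 8.13 CPM against 9.65, 9.95 and 9.78 CPM (log2FC -0.27). At 36 h it was 19, 15.2 and 16 CPM against 10.4, 9.66 and 7.89 CPM (0.84, adjusted p = 0.00517), and at 72 h 30.8, 34.5 and 43.9 CPM against 9.11, 13.5 and 11.2 CPM (1.73, adjusted p = 8.84e-06).

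Gla (chrX:133488891-133501904, minus strand), the α-galactosidase deficient in Fabry disease, had the opposite order. It was highest at 6 h, at 35.2, 37.0 and 50.2 CPM against 10.7 to 18.4 CPM over the 9 controls (log2FC 1.60, edgeR adjusted p = 1.05e-07). It then held 24.0, 24.7 and 28.1 CPM at 12 h, 28.9, 24.2 and 16.9 at 24 h, 21.6, 30.9 and 22.8 at 36 h and 32.3, 20.5 and 21.7 at 72 h. Its own controls were 10.7 to 12.9 CPM at 12 and 36 h and 16.6, 17.9 and 18.4 CPM at 72 h, so the log2FC was 1.1, 1.09 and 0.51, and the 72 h value did not pass (adjusted p = 0.0752). Gla overlaps Hnrnph2 and Rpl36a on the other strand.

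Another 4 enzymes were called higher at 72 h alone: Hexa, a subunit of the hexosaminidase lost in Tay-Sachs disease (log2FC 1.06), the β-galactosidase gene Glb1 (0.96), the fucosidase gene Fuca1 (0.89) and the mannosidase gene Man2b1 (0.78). Glb1 was lower at 6 h (-0.68), a call lost without SE 6 h replicate 2 or 3, Ctr 12 h replicate 2 or Ctr 72 h replicate 1 or 3 (-0.63 to -0.65). The genes of heparan and dermatan sulfate breakdown other than Gusb and Naglu went lower or did not pass. Idua was called lower at 12 h (14.3, 15 and 15.1 CPM against 26.3, 24.6 and 22 CPM, log2FC -0.72, edgeR adjusted p = 0.000473), just short of the call without Ctr 12 h replicate 1 (-0.66). Sgsh was called lower at 12 and 24 h (-0.76 and -0.80), at 3.15 to 8.12 CPM in these libraries. Its 12 h call was lost without SE 12 h replicate 1 or 2 or Ctr 12 h replicate 3, and its 24 h call without SE 24 h replicate 3, with log2FC of -0.63 to -0.77 and adjusted p of 0.0512 to 0.103. At 72 h it was called higher without Ctr 72 h replicate 2 (0.83). Ids, the iduronate sulfatase, was called lower at 36 h (-0.67, adjusted p = 0.00164), with -0.65 at 12 h and -0.48 at 72 h, and its 9 SE libraries of those times lay between 361 and 612 CPM against 616 to 803 CPM in the 9 controls. The 36 h call was lost without SE 36 h replicate 2 or 3 or Ctr 36 h replicate 1 (-0.63, -0.66 and -0.63), and 12 h passed without SE 12 h replicate 2 or Ctr 12 h replicate 1 (-0.87 and -0.69).

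Neu1, the lysosomal sialidase, had the smallest changes of the group. Its libraries held 45.0, 48.9 and 62.1 CPM in Ctr 12 h and 43, 48.0 and 36.6 in SE 12 h, 45.9, 50.1 and 51.3 in Ctr 36 h and 55.3, 57.1 and 52.1 in SE 36 h, and 47.5, 35.8 and 48.7 in Ctr 72 h and 52.2, 59.4 and 46.8 in SE 72 h. The log2FC was -0.29, 0.16 and 0.27, and none passed. Gaa, the acid glucosidase of glycogen breakdown, and Galc, the galactosylceramidase of myelin lipid turnover, were not called either (log2FC -0.48 to 0.03 and -0.11 to 0.50).

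The 6 genes of lipid breakdown and its cofactors split evenly at 72 h, 3 called higher and 3 not (50% higher, all genes 15.1%). Grn (chr11:102321141-102327874, plus strand) encodes progranulin, a secreted and lysosomal glycoprotein cut into granulins and needed for normal lysosome function. It held 76.4, 85.9 and 69.2 CPM in Ctr 12 h, 78.5, 70.6 and 79.0 in Ctr 36 h and 74.9, 77.9 and 79.9 in Ctr 72 h. SE libraries held 58.4, 63.0 and 71.0 CPM at 6 h, 88.5, 80.9 and 93.7 at 12 h, 164, 144 and 143 at 24 h, 203, 185 and 194 at 36 h and 446, 515 and 594 at 72 h. The log2FC was 0.18 at 12 h (standard error 0.11), 1.35 at 36 h (0.11, edgeR adjusted p = 2.70e-08) and 2.74 at 72 h (0.12, 1.11e-11), the smallest p of any member at that time.

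Asah1, the acid ceramidase, and Lipa, the acid lipase that frees cholesterol from its esters, rose by less. Asah1 was at 60.6, 52.3 and 49.8 CPM in SE 12 h against 44.7, 54.0 and 47.2 CPM, at 90.1, 87.0 and 92.1 CPM in SE 36 h against 45.3, 48.7 and 47.8 CPM, and at 95.6, 107 and 108 CPM in SE 72 h against 51.9, 63.4 and 42.0 CPM. Its log2FC was 0.16, 0.93 and 0.99 (edgeR adjusted p = 0.245, 1.07e-06 and 6.13e-07), so the groups were apart from 36 h on. Lipa was apart at all 3 times, at 43.1, 41.1 and 37.0 CPM against 23.5, 24.1 and 27.8 CPM at 12 h, at 44.8, 30.3 and 55.9 CPM against 24.5, 23.7 and 23.8 CPM at 36 h and at 56.7, 48.9 and 55.1 CPM against 24.3, 36.5 and 25.1 CPM at 72 h. Its log2FC was 0.69, 0.86 and 0.94, and the call was lost at 12 h without replicate 1 of either group (0.64) and at 36 h without SE 36 h replicate 3 (0.64).

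Psap encodes prosaposin, the precursor of the saposins that help hydrolases reach their lipid substrates. It was the most abundant member and the least changed of this group. It held 1710, 1840 and 1790 CPM in Ctr 12 h and 1380, 1560 and 1440 in SE 12 h, 1740, 1700 and 1750 in Ctr 36 h and 1430, 1440 and 1540 in SE 36 h, and 1660, 1700 and 1860 in Ctr 72 h and 1800, 1770 and 1980 in SE 72 h. The log2FC was -0.28, -0.23 and 0.09, and none passed, although the SE libraries lay below the controls at 12 and 36 h. Ppt1, the palmitoyl-protein thioesterase, and Smpd1, the acid sphingomyelinase, were not called at any time, with log2FC of up to 0.38 and 0.45.

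Of the 7 membrane genes, 3 were called higher at 12 h (42.9%, all genes 13.7%), 3 at 36 h (42.9%, all genes 12.6%) and 5 at 72 h (71.4%, all genes 15.1%). None was called lower, and the median log2FC was 0.13, 0.58 and 1.25. Cd68 and Cd63 rose early, and Laptm5 late.

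Cd68 (chr11:69555037-69557067, minus strand), the LAMP-family glycoprotein of phagocytes, held 11, 9.47 and 5.14 CPM in Ctr 12 h, 10.9, 9.19 and 7.31 in Ctr 36 h and 7.60, 0.171 and 8.62 in Ctr 72 h. SE libraries held 30.8, 40.4 and 44.2 CPM at 6 h, 31.6, 37.0 and 58.6 at 12 h, 59.7, 47.5 and 62.8 at 24 h, 69.2, 61.2 and 79.3 at 36 h and 114, 107 and 179 at 72 h. Each SE library lay above each control. The log2FC was 2.32 at 12 h (standard error 0.28, edgeR adjusted p = 4.25e-06), 2.98 at 36 h (0.28, 2.13e-07) and 5.31 at 72 h (0.36, 3.03e-09), the last against the Ctr group with the library of 1 count. Without that library the 72 h log2FC was 4.05 and was still called.

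Cd63 (chr10:128731528-128748709, plus strand), a tetraspanin of late endosomes, lysosomes and exosomes, held 34.4 to 42.3 CPM in the 6 controls of 12 and 36 h and 58.1, 72.0 and 60.7 CPM in Ctr 72 h. SE libraries held 110, 134 and 105 CPM at 6 h, 182, 145 and 220 at 12 h, 334, 303 and 387 at 24 h, 289, 336 and 257 at 36 h and 248, 288 and 354 at 72 h. It thus reached its plateau by 24 h, and the log2FC was 2.29 (standard error 0.16), 2.86 (0.17) and 2.23 (0.17) at 12, 36 and 72 h (edgeR adjusted p = 7.24e-09, 2.85e-10 and 5.84e-09). The 72 h log2FC was set against the higher Ctr 72 h libraries.

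Laptm5, a lysosomal membrane protein of blood-lineage cells, held 24.2, 33.0 and 42.8 CPM in SE 12 h against 31.4, 35.6 and 34.8 CPM, and 63.1, 54.4 and 64.4 CPM in SE 36 h against 41.1, 43 and 39.4 CPM. At 72 h it held 147, 188 and 225 CPM against 35.9, 52.4 and 39 CPM. The log2FC was -0.03, 0.56 and 2.16 (standard error 0.22 at 72 h, edgeR adjusted p = 0.933, 0.0417 and 2.70e-07), and 0.56 was short of the threshold in size.

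Lamp2, which also serves as a receptor for chaperone-mediated autophagy, was called higher at all 3 times (log2FC 0.76, 1.29 and 1.25, the first not without SE 12 h replicate 1 at 0.64), and Lamp1 at 72 h alone (0.94), at 378, 382 and 469 CPM against 218, 216 and 208 CPM. Scarb2, the membrane receptor that carries β-glucocerebrosidase to lysosomes, had the smallest change of the group when the largest of the 3 time-matched values is compared (0.58, against 0.60 for Mcoln1). It held 163, 160 and 151 CPM in Ctr 12 h and 177, 145 and 160 in SE 12 h, 169, 156 and 155 in Ctr 36 h and 245, 224 and 250 in SE 36 h, and 161, 171 and 178 in Ctr 72 h and 245, 238 and 237 in SE 72 h. Its libraries were apart at 36 and 72 h with log2FC of 0.58 and 0.50 (edgeR adjusted p = 2.66e-05 and 0.000197), below the 0.66 of the call. The calcium channel gene Mcoln1 was at -0.60, -0.09 and 0.11, closer to 0 than Scarb2 at 36 and 72 h, and was not called.

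Of the 3 V-ATPase subunits, Atp6v1a and Atp6v0a1 are abundant in neurons, while Atp6v0d2 is the d subunit of osteoclasts and macrophages. Atp6v1a, the catalytic subunit, held 684, 625 and 901 CPM in Ctr 12 h and 481, 486 and 381 in SE 12 h, a log2FC of -0.71 (standard error 0.13, edgeR adjusted p = 0.000330) with the groups apart. Without replicate 3 of the SE or of the Ctr group, this was -0.61 or -0.54 and was not called. At 36 h it held 601, 583 and 573 CPM against 702, 706 and 674 CPM, and at 72 h 603, 468 and 505 CPM against 585, 620 and 528 CPM, and the log2FC of -0.24 and -0.13 did not pass. Atp6v0a1 was not called at any time. It held 580, 765 and 775 CPM in SE 12 h against 604, 635 and 702 CPM, 549, 522 and 542 CPM in SE 36 h against 625, 638 and 609 CPM, and 433, 478 and 496 CPM in SE 72 h against 572, 519 and 577 CPM.

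Atp6v0d2 had no count in the 6 Ctr libraries of 12 and 36 h and 2 counts in Ctr 72 h, both in replicate 2. SE libraries held 0.795, 0.862 and 3.11 CPM at 12 h (81 counts), 0, 1.02 and 0.513 CPM at 36 h (22 counts) and 0.651, 1.24 and 1.32 CPM at 72 h (51 counts). Against a floor of 3 counts over the control group, its level was at least 21.9-fold higher at 12 h and at least 7.59-fold higher at 36 h. At 72 h the ratio was 10.8 (95% exact counting interval 2.85 to 92.0), and at 6 h, with 16 counts against 2 over the 9 controls, it was 20.1 (4.74 to 181). At 24 h, 4 counts gave 4.99 (0.716 to 55.2). These intervals cover counting error only. The gene passed the thresholds at 6, 12 and 36 h, at 36 h with 1 SE library at 0, but its p-values are not given, as it entered the fit only through its SE libraries.

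Tfeb (chr17:48047837-48103348, plus strand) was called higher in all 5 SE groups and did not climb with time. Its libraries held 8.90, 8.99 and 6.34 CPM in Ctr 12 h, 10.0, 8.14 and 7.89 in Ctr 36 h and 8.44, 13.5 and 10.1 in Ctr 72 h. SE libraries held 14.4, 21.1 and 17.6 CPM at 6 h, 13, 10.9 and 18.2 at 12 h, 16.4, 13.2 and 14.4 at 24 h, 15.6, 14.1 and 18.3 at 36 h and 11.7, 20.4 and 17.9 at 72 h. The groups were apart at 12 and 36 h and overlapped at 72 h. Its log2FC in time order was 0.98, 0.80, 0.70, 0.88 and 0.68 from 6 h to 72 h (standard errors 0.18 to 0.24, edgeR adjusted p = 0.00023, 0.00899, 0.00403, 0.0055 and 0.0385). At 72 h the call was lost without SE 72 h replicate 2 or 3 (log2FC 0.52 and 0.63) or Ctr 72 h replicate 1 or 3 (0.49 and 0.67), and at 12 h without SE 12 h or Ctr 12 h replicate 3 (0.57 and 0.65). At 24 h it was lost without SE 24 h replicate 1, Ctr 12 h replicate 3 or Ctr 72 h replicate 1 (0.62 to 0.65), whereas at 6 and 36 h leaving out any one library kept it. With the label number range as a factor in place of the RUVr factor, the 72 h log2FC was 0.34 and was not called (edgeR adjusted p = 0.606).

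Whether the SE effect itself differed between times was tested as the difference of 2 time-matched log2FC. From 12 to 36 h, 13 members had a larger effect and none a smaller one (all genes: 2.02% and 1.34%), a count that dropped to 8 without Ctr 12 h replicate 2 or Ctr 36 h replicate 3. From 12 to 72 h, 25 had a larger effect and none a smaller one (all genes: 12.2% and 6.17%). The largest of these was Gusb, whose log2FC was 3.05 higher at 72 than at 12 h (standard error 0.25, edgeR adjusted p = 2.66e-07), before Cd68 (2.99, 0.46, or 1.75 without Ctr 72 h replicate 2), Ctsh (2.64, 0.27), Grn (2.56, 0.16), Ctsd (2.21, 0.22) and Laptm5 (2.19, 0.29). Members for which a low value at 12 h gave way to a higher one at 72 h were among them, such as Man2b1 (1.38), Fuca1 (1.29), Tpp1 (1.22), Idua (0.99) and Ctsf (0.68), the last lost when SE 12 h replicate 1 or 3, replicate 2 of SE 72 h or replicate 2 of Ctr 12 h was left out (0.56 to 0.66). The effect on Cd63, Lamp2, Lipa, Gla, Tfeb and Ctsk was not called different between 12 and 72 h. Measured without controls, SE 72 h against SE 12 h gave 27 members higher and 1 lower (all genes: 14.1% and 9.63%), the lower one being Ctsk, whose libraries overlapped and whose log2FC of -1.35 was -0.12 without the SE 12 h library at 23.2 CPM and was also lost without SE 72 h replicate 1 or 3 (-1.02 and -1.46).

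On a scale per transcript length (FPKM, the CPM per kilobase of the canonical transcript), Psap was the highest member in controls at 660 ± 25.2 FPKM (SD, n = 9). Atp6v0a1, Atp6v1a, Ids, Gaa and Ctsb followed at 147 ± 12.3, 146 ± 22.8, 137 ± 12.3, 130 ± 17.6 and 119 ± 32.5 FPKM (SD, n = 9), levels that overlapped between neighbours. In SE 72 h (n = 3), Psap was still first at 698 ± 41.7 FPKM, now followed by Ctsd at 599 ± 102, Ctsb at 400 ± 31.8, Grn at 222 ± 31.7, Cd63 at 215 ± 38.6 and Ctss at 209 ± 18.9 FPKM (SD). Ctsd had been the eighth member in controls at 70.3 ± 19.4 FPKM (SD, n = 9). The lowest members on this scale were Ctsk, at 0.733 ± 0.372 FPKM in controls (SD, n = 9) and 2.05 ± 0.723 FPKM in SE 72 h (SD, n = 3), and Atp6v0d2.

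**Figure D4:**
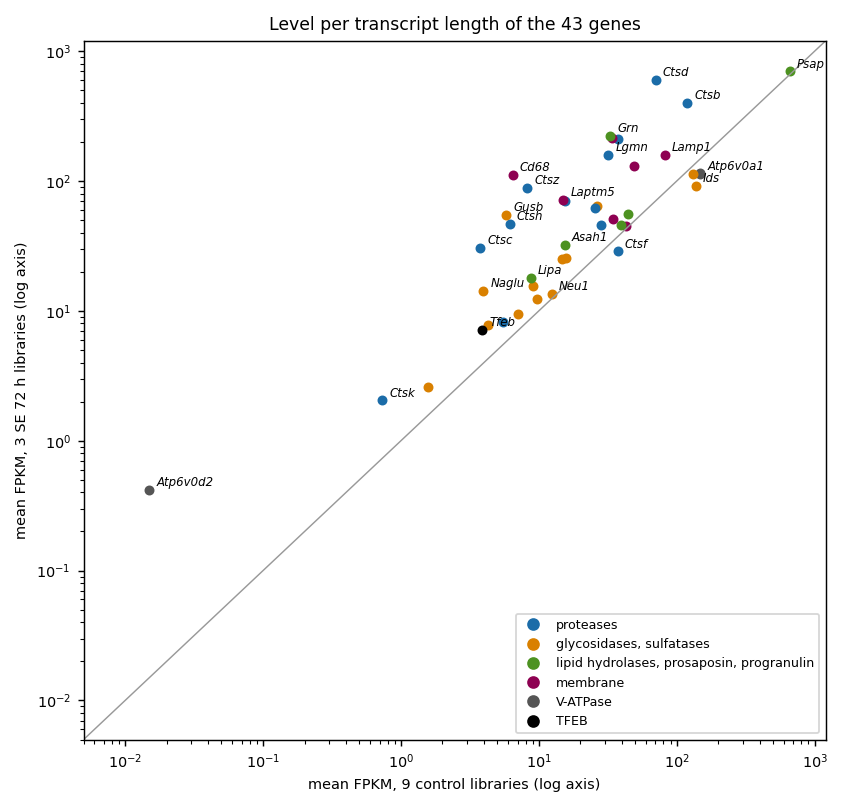
Mean FPKM of the 43 genes in the 9 Ctr libraries against the 3 SE 72 h libraries, both axes logarithmic, coloured by role, with the diagonal of equal levels. Ctsd, Ctsb and Grn move up towards Psap, which stays near the diagonal, while Ids, Gaa and both abundant V-ATPase subunits lie on or under it.

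Of the cell type marker lists, the microglial and astrocyte sums were highest in the SE 72 h libraries, as was the sum of the members. The summed level of the 43 genes was 6510 to 7360 CPM in the 9 controls. In SE it spanned 6290 to 7660 in the 6 h libraries, 6600 to 6770 in the 12 h libraries, 7880 to 8400 in the 24 h libraries, 8020 to 9070 in the 36 h libraries and 11500 to 13500 in the 72 h libraries. The 12 microglial markers, none of them a member, summed to 372 to 468 CPM in controls. In SE their sum lay between 286 and 331 in the 6 h libraries, 313 and 455 in the 12 h libraries, 595 and 796 in the 24 h libraries, 841 and 923 in the 36 h libraries, and 1840 and 2620 in the 72 h libraries. At 6 h, 1 of these markers was called higher and 5 lower (median log2FC -0.18), whereas 8 members were higher and 2 lower. All genes stood at 15.7% and 6.16% there. Of the 12 markers, 3 were called higher and 2 lower at 12 h (median log2FC 0.16), 9 and 1 at 36 h (1.16) and all 12 higher at 72 h (2.80). The 10 astrocyte markers summed to 5050 to 6210 CPM in controls and 13200 to 14800 CPM in SE 72 h, with 5 called higher (median 0.86). At 12 h, 3 of them were higher and 2 lower, and at 36 h 5 were higher and 4 lower. Of 10 markers of infiltrating leukocytes, 5 were in the count table. They summed to 37.5, 14 and 8.28 CPM in SE 72 h, against 0.76, 21.5 and 9.75 CPM in Ctr 72 h and 1.47 to 3.87 CPM in the Ctr libraries of 12 and 36 h, with Ccr2 and Ms4a7 called higher at 72 h (median 2.65 over the 5). At 72 h, 1 of 9 oligodendrocyte markers and 2 of 9 vascular markers were called higher and none lower (all genes: 15.1% and 4.12%). Of 10 general neuron markers, none was higher and 3 were lower at 72 h. Of 7 markers of CA1 pyramidal neurons, 3 were called lower in the 12 h comparison, 5 in the 36 h one and 2 in the 72 h one. Of all genes, 11.2%, 8.78% and 4.12% were lower there. None of the 7 was called higher, and Wfs1 had a log2FC of -0.6, 1.13 and 0.51. SE 72 h replicate 1 had the lowest CA1 sum of its group, 393 CPM. It also held 235 CPM of dentate and CA3 markers, against 18.5 and 25.6 CPM in replicates 2 and 3. The part of these cell types in the members' changes was not tested.

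**Figure D5:**
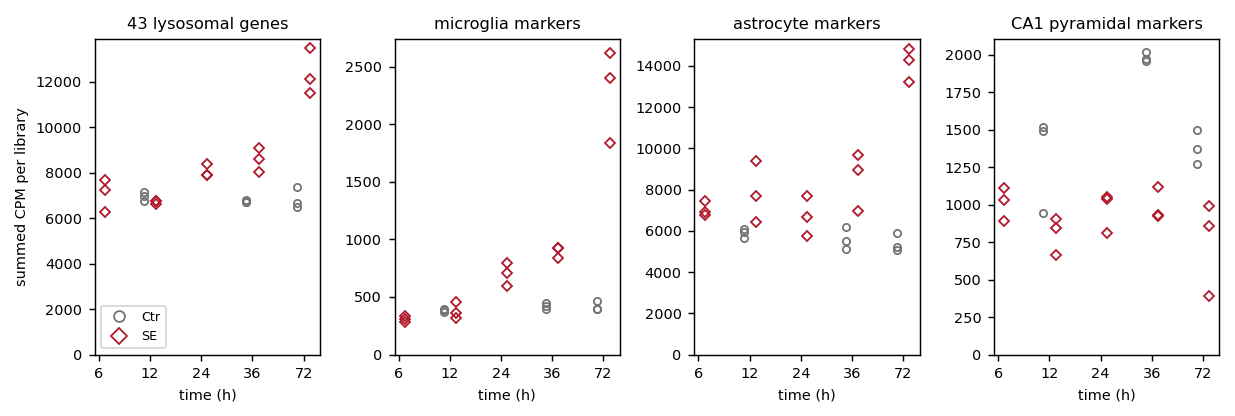
Summed CPM of the 43 lysosomal genes and of 3 marker lists in each library against time, Ctr as grey circles and SE as red diamonds, each vertical axis starting at 0. The lysosomal, microglial and astrocyte sums are highest in the 3 SE 72 h libraries, and the CA1 pyramidal sum is lower after SE in most libraries.

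The members were set beside other genes of the same organelle. At 72 h, where 15.1% of all genes were called higher and 4.12% lower, 19 of 28 further lysosomal enzymes were higher (67.9%) and none lower, among them Ctse (log2FC 4.67), which encodes cathepsin E, and Acp5 (2.26), the tartrate-resistant acid phosphatase. Of 24 further membrane genes, 7 were higher (29.2%) and 1 lower, with Gpnmb (5.29), a glycoprotein of phagocytes, and the metal transporter gene Slc11a1 (1.89) higher and the neuronal Lamp5 lower (-1.86). Of 17 further V-ATPase genes, 3 were higher (17.6%) and 1 lower, with Tcirg1, the a3 subunit, at 1.68. Of the genes that sort enzymes to the lysosome, 1 of 15 was higher, of MiT factors and mTORC1 components 1 of 13 (Mitf at 0.77) and of autophagy genes 1 of 17 (Wipi1 at 0.91), with none lower, and counts this small do not set these lists apart from all genes. Of 4 cystatin genes, which encode inhibitors of cysteine cathepsins, Cstb (1.22) and Cst7 were called higher. Cst7, a cystatin of reactive microglia, had no count in Ctr 72 h and 13.8, 25.1 and 21.4 CPM in SE 72 h, at least 133-fold higher against a floor of 3 counts over the group. The large log2FC of Ctse rests on 8 control counts, all in replicate 2, and its libraries overlapped (0, 1.36 and 0 CPM in Ctr 72 h, 1.24, 1.91 and 1.07 CPM in SE 72 h). Acp5 was low as well, with 19 control counts (1.18, 0 and 1.87 CPM in Ctr 72 h, 2.13, 3.15 and 3.26 CPM in SE 72 h, edgeR adjusted p = 0.0302). At 12 h, 1 of the 28 further enzymes was higher and 5 lower (3.57% and 17.9%, all genes 13.7% and 11.2%). The 24 further membrane genes had 3 higher and 5 lower at that time (12.5% and 20.8%).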

How the data were processed

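CA1 RNA of 24 libraries (8 groups of 3) was sequenced by the authors as poly(A)-selected, paired-end TruSeq libraries without strand marking. The authors trimmed reads (Trim Galore 0.6.6), aligned them to GRCm39 with STAR 2.7.8a and counted them per GENCODE M26 gene with htseq-count (HTSeq 0.13.5) ignoring strand, and deposited raw counts. Symbols and gene positions came from GENCODE M39, in which 29 members overlap another gene. In R 4.3.3, counts were scaled by TMM (edgeR 4.0.16), filtered with filterByExpr and modelled with 1 coefficient for each group plus 1 RUVr factor, which captures unwanted variation left in the residuals. That factor was 0.797 in Ctr 72 h replicate 2 and -0.383 and -0.374 in Ctr 72 h replicates 1 and 3. In all other libraries it lay between -0.102 and 0.136. It thus mainly set the ganglion-rich Ctr 72 h library apart from the rest of its group, the reference of the 72 h comparison. P-values of the quasi-likelihood test were adjusted by Benjamini-Hochberg across 18153 tested genes. The script was tested on simulated data. No source states how many animals gave a library, so p-values measure the spread between libraries, which may be technical.

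Members and lists were chosen with earlier results of these data known. In each role, the 3 largest called changes, the smallest change and Tfeb are given by library, and of the other lists at most the 3 largest called at 72 h, 1 of which is not reported here. Deviations of same-numbered libraries correlated at -0.201 to 0.181 at matched times, not every one above 0.1, so numbers were not treated as pairs. Alternatives were no RUVr factor, DESeq2 1.42.0 or its size factors, library totals, limma-voom (limma 3.58.1), other filters and thresholds, the compared groups only, ranges of label numbers in place of the RUVr factor, a replicate block, thinning to the smallest library and leaving out each library. Leaving out the 6 libraries rich in ganglion genes and a ganglion score were added after seeing the data.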

Additional observations from a re-analysis of the deposited data

Results flagged for a closer look

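The following members were set apart because the test of the difference between times, in edgeR's quasi-likelihood model, called their SE effect unequal at 2 times. Between 12 and 36 h the log2FC grew by 1.85 for Gusb, 1.42 for Ctsc, 1.17 for Grn, 1.11 for Naglu, 1.05 for Ctsz, 0.77 for Asah1 and 0.68 for Tpp1, with edgeR adjusted p from 0.000718 to 0.0448. The Naglu value was lost in 11 of 12 fits that each left out one library, and that of Tpp1 in 3 of 12.

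Between 12 and 72 h the log2FC grew by 3.05 for Gusb, 2.99 for Cd68, 2.56 for Grn, 2.19 for Laptm5, 2.00 for Naglu, 1.72 for Ctsz, 1.56 for Ctsc, 1.22 for Tpp1 and 0.84 for Asah1, with edgeR adjusted p from 1.31e-08 to 0.000673. None of these 9 was lost when any one library was left out. Laptm5 and Cd68 were not called different between 12 and 36 h. These members were chosen for the size of their changes, so the list does not stand for all members.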

How the results depend on the processing

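No value of a named member changed sign against a call. Of their log2FC under the alternatives, 1182 kept their side of the threshold, 55 lost the call and 9 gained it. Counts of members called moved by more than 1.5 times with the log2FC threshold: with none, 28 were called at 12 h, 26 at 6 h and 31 at 24 h, and with a threshold of 1, 8 at 12 h, 5 at 6 h, 9 at 24 h and 8 for the difference between 36 and 12 h. Requiring 10 counts in every library, which drops 4 members, left 6 at 6 h. With the replicate block, 17, 22 and 28 were called at 12, 36 and 72 h, against 16, 22 and 27, and 11 of 18 libraries correlated best with their own number. Atp6v0d2 was called at 72 h with the block (log2FC 4.35), and Ctsk was no longer called between SE 72 h and SE 12 h. Leaving out one library at a time gave 14 to 18 members at 12 h, 19 to 23 at 36 h, 24 to 28 at 72 h, 9 to 11 at 6 h, 15 to 19 at 24 h, 8 to 14 for 36 against 12 h, 23 to 28 for 72 against 12 h, and 25 to 29 for SE 72 h against SE 12 h. With label number ranges entered as a factor in place of the RUVr factor, 14, 21 and 22 were called at 12, 36 and 72 h, and Tfeb at 72 h was 0.34 (edgeR adjusted p = 0.606). The counts in this section take higher and lower together. Apart from the label ranges at 72 h, the shares of all genes called under these settings are not given here. The counts thus show how far the calls move and do not set the members apart from other genes. The Ctr 72 h libraries, with 2663936 to 11680209 counts, limit members of low count such as Ctsk, Cd68, Sgsh and Atp6v0d2.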
